A study of Mus musculus with 39 samples.

Results

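The proneural bHLH factors studied here are 9 mouse genes: Neurog1, Neurog2, Neurod1, Neurod2, Neurod4, Neurod6, Olig1, Olig2 and Bhlhe22. Peaks of Notch and RBPJ were given to them by position: a peak belonged to the protein-coding gene whose start site on mm10 was closest. Of 20809 consensus peaks on the nuclear chromosomes, 23 were assigned to these genes, and they fell to 8 of the 9. No peak was assigned to Neurod4. A list of peaks was available for each protein in each cell type, and the RBPJ lists had 14 peaks in RGCs and 15 in IPCs nearest to these genes, while the Notch lists had 6 and 3.

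Radial glial cells (RGCs) are the stem cells of the embryonic cortex and produce intermediate progenitor cells (IPCs), which divide to give neurons. Among the proneural bHLH factors, those of the Neurog and Neurod genes bind E-box sites together with E proteins and drive progenitors towards the neuronal fate. Notch works against them. RBPJ sits on DNA. Without the cleaved tail of the Notch receptor it can take part in repression. With that tail it activates Hes genes, whose products repress proneural genes.

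Binding was mapped by Targeted DamID (TaDa), in which a Dam methylase fused to a protein leaves a methyl mark on GATC sites around its binding sites. Plasmids were electroporated into MF1 wild-type embryos at E13.5, and the cortex was harvested 24 h later, at E14.5. A Hes5 promoter drove the fusions in RGCs and a Tα1 promoter (of the tubulin gene Tuba1a) drove them in IPCs. In each cell type 3 samples carried Dam fused to human RBPJ1. Notch was mapped in RGCs with 2 samples of NICD, the mouse intracellular domain, and 2 of NdECD, a mouse receptor without its extracellular part, and in IPCs with 4 samples of NICD. The fused proteins were introduced on plasmids, and the Notch fusions were active forms or forms without the ligand-binding part. Dam-only controls numbered 5 in RGCs and 4 in IPCs. The paper does not state which of them served each list, so the RBPJ and Notch lists of a cell type may share controls. The files hold 1 pooled list per group with peak positions and the authors' k-means cluster of each consensus peak, and no height or value of a single sample. Depth, the spread between replicates and the identity of the cells could therefore not be read from them, and no comparison could be tested. Shares are given with Wilson 95% intervals and rates with exact Poisson 95% intervals, which cover counting error only. Peaks around the same gene are not independent of each other.

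Sequences are shown for 5 of the 12 peaks at which lists met: the 3 called in 3 lists, the only peak of RGC Notch and IPC RBPJ without another list, and the Neurog1 start-site peak. The start sites that carried a peak follow. All are printed on mm10, 5′ to 3′. Capitals mark the RBPJ word TTCCCA, which reads as TGGGAA when it lies on the opposite strand, and the E-box words of proneural factors. These were CAGATG, which on the opposite strand reads as CATCTG, and the word CATATG, which is the same on both. Peaks of a gene are numbered along the chromosome. The stretch of 300 bases from Neurog2 peak 3 was covered by RGC RBPJ, RGC Notch and IPC RBPJ and held all 3 of the RBPJ words that these lists shared. The Neurog2 peak 1 stretch was covered by RGC Notch and IPC RBPJ. That of Neurod6 peak 3 was covered by RGC Notch, IPC RBPJ and IPC Notch, and that of Olig2 peak 3 by RGC RBPJ, RGC Notch and IPC Notch. The Neurog1 peak 2 stretch lay upstream of the gene under both RBPJ lists.
Neurog1 peak 2 (chr13:56252655-56252954, plus strand): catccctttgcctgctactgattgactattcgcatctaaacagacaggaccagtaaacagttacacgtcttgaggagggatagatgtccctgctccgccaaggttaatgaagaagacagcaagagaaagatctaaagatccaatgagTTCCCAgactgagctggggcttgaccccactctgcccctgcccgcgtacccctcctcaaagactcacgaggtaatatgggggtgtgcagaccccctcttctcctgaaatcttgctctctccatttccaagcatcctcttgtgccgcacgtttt
Neurog2 peak 1 (chr3:127625750-127626049, plus strand): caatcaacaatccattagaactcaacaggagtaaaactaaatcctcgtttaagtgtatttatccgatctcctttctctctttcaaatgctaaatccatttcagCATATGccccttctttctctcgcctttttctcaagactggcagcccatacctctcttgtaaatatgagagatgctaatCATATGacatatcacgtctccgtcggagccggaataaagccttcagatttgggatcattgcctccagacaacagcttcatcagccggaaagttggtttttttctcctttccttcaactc
Neurog2 peak 3 (chr3:127640989-127641288, plus strand): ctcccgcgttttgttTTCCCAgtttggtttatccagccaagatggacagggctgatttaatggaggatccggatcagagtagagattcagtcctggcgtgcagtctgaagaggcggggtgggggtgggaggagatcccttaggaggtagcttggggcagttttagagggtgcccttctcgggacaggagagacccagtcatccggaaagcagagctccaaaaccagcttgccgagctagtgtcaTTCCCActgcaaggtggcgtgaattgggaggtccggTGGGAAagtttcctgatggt
Neurod6 peak 3 (chr6:55681394-55681693, plus strand): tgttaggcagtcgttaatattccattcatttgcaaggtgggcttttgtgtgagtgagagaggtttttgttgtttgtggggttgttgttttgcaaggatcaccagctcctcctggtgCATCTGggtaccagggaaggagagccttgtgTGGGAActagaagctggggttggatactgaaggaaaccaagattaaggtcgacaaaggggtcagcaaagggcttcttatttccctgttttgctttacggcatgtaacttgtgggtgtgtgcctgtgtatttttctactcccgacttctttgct
Olig2 peak 3 (chr16:91172655-91172954, plus strand): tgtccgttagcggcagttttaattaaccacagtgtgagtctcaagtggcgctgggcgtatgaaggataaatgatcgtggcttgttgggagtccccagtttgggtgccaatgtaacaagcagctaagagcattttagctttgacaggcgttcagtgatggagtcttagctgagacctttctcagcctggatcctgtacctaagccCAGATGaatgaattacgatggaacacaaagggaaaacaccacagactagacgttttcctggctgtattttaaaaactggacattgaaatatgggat

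The sequence just before the start site is shown for the 4 genes with a peak on it and, beside them, for Neurod2, which had none. Start sites are those of RefSeq, which listed 7 of the 9 genes in its table for GRCm38.p6 (mm10), and Olig1 and Bhlhe22 were read at the GENCODE start site. The Neurod1 stretch stops at the start site of Cerkl, 34 bases before that of Neurod1, and is 216 bases long, and the others are 250 bases long.
Neurog1 promoter (chr13:56252181-56252430, minus strand): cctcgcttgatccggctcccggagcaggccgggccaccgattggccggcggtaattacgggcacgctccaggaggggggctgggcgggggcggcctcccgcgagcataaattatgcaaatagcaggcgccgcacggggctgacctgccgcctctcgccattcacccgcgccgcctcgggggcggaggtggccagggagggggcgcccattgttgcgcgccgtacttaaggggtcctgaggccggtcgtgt
Neurog2 promoter (chr3:127632885-127633134, plus strand): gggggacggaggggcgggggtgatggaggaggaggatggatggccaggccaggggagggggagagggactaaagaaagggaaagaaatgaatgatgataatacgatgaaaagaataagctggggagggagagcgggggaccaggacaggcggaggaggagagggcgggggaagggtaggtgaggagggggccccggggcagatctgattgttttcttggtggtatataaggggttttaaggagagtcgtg
Neurod1 promoter (chr2:79456786-79457001, minus strand): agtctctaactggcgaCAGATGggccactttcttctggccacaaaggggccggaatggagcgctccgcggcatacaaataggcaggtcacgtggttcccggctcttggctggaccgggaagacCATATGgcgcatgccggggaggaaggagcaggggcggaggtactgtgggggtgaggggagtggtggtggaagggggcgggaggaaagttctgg
Neurod2 promoter (chr11:98329649-98329898, minus strand): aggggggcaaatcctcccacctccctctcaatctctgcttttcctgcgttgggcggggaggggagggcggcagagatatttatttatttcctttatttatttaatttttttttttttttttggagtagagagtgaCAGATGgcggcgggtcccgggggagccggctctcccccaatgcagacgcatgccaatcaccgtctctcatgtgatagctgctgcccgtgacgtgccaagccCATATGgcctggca
Neurod6 promoter (chr6:55681264-55681513, minus strand): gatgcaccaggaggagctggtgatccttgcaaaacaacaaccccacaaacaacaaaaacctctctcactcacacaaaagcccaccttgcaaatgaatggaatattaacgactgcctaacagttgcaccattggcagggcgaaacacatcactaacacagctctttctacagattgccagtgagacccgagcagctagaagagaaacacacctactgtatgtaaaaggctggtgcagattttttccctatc

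In the 250 bases before the start, the RBPJ word TTCCCA was found only at Olig1, where no list had a peak, and it was found in 21.6% of 32851 RefSeq promoters of the same length. CAGATG or CATATG occurred before Neurod1 (2 words), Neurod2 (2 words) and Bhlhe22 (1 word), against 17.3% of the RefSeq promoters. The start sites under peaks of Neurog1, Neurog2 and Neurod6 held neither word in these bases.

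The Neurogenins are the early proneural genes of cortical progenitors. Neurog1 (ENSMUSG00000048904, chr13:56250478-56252163, minus strand) had 2 consensus peaks, and both were called in both RBPJ lists and in neither Notch list. Peak 2 (chr13:56249086-56253773) covered the whole gene and its start site. The RGC RBPJ peak there was 4688 bp wide and the IPC RBPJ peak, which lay inside it, was 3346 bp wide. Of its 3 TTCCCA words, 1 lay under both lists, 0.641 kb upstream of the start site in the stretch printed for this peak. Peak 1 (chr13:56220846-56223683) lay 28.5 kb downstream with its midpoint in an exon of the lincRNA gene 4930550C17Rik, and 1619 bp of it were shared by both RBPJ lists. Both peaks were in cluster 7.

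Neurog2 (ENSMUSG00000027967, chr3:127633135-127635631, plus strand), the main neuronal determination factor of the dorsal cortex, had 4 consensus peaks in 4 different clusters, none of them beginning more than 17.3 kb from its start site. RGC RBPJ was called in 3 of them, IPC RBPJ in 3, RGC Notch in 2 and IPC Notch in none. Peak 2 (chr3:127630449-127636066, cluster 7) covered the gene. The RGC RBPJ peak of 5618 bp spanned the start site, whereas the IPC RBPJ peak was 1279 bp wide, began 1045 bp downstream of the start site and did not reach it. Thus only the RGC RBPJ list had a call on the Neurog2 start site itself, and the IPC RBPJ call lay over the 3′ part of the gene. Signal below the calling threshold could not be read. The IPC RBPJ peak held 4 of the 9 TTCCCA words of peak 2.

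Upstream, Neurog2 peak 1 (chr3:127625683-127628388, cluster 2) lay 4.75 kb from the start site. It consisted of an IPC RBPJ peak of 2706 bp and, at its far end, an RGC Notch peak of 323 bp. The 323 bp shared by the lists held 2 CATATG words and no TTCCCA. RGC RBPJ was not called there. This pair of lists without any other was rare: 0.408% of all consensus peaks and 0.808% of those in cluster 2 had it.

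Downstream, Neurog2 peak 3 (chr3:127639557-127646651, cluster 5) began 6.42 kb from the start site and was called in RGC RBPJ, RGC Notch and IPC RBPJ. The RGC RBPJ peak was 7095 bp wide, and inside it the RGC Notch peak of 1770 bp and the IPC RBPJ peak of 732 bp shared 705 bp. These 705 bp held 3 TTCCCA words, of which 2 continued as TTCCCAC. Cluster 5 was otherwise mostly RGC RBPJ, which was called in 97.6% of its peaks, against 5.86% for RGC Notch and 5.22% for IPC RBPJ. Only 18 peaks of the cluster, or 0.385%, had the 3 lists of Neurog2 peak 3. Peak 4 (chr3:127650442-127653951, cluster 4) was called in RGC RBPJ alone, 17.3 kb downstream.

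The NeuroD genes act after the Neurogenins and carry differentiation forward. Neurod1 (ENSMUSG00000034701, chr2:79452521-79456751, minus strand), which is switched on in late progenitors and young neurons, had 1 consensus peak (chr2:79454850-79457389, cluster 3). It covered the start site, was 2540 bp wide and was called in IPC RBPJ alone. The start site of Cerkl, a ceramide kinase-like gene, lies 34 bp away under the same peak, so the peak could not be given to Neurod1 alone. A wider IPC RBPJ peak of 4166 bp (chr2:79457638-79461803, cluster 3) followed after a gap of 248 bp. It was 887 bp from the Neurod1 start site and 853 bp from that of Cerkl, and the rule therefore gave it to Cerkl.

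Neurod2 (ENSMUSG00000038255, chr11:98325415-98329648, minus strand) and Neurod6 (ENSMUSG00000037984, chr6:55677822-55681263, minus strand) are genes of cortical projection neurons. The only Neurod2 peak (chr11:98320133-98324331) lay downstream, 5.32 kb from the start site, and was called in RGC RBPJ alone. The authors' clustering used binding intensities, not calls. It put this peak in cluster 3, where 96.7% of peaks were called in IPC RBPJ and 1.68% in RGC RBPJ alone. No list had a peak on the Neurod2 start site.

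Neurod6 had 4 peaks, from 99.7 kb downstream to 35.6 kb upstream of its start site. Peak 3 (chr6:55680899-55683359, cluster 7) covered the start site and was called in RGC Notch, IPC RBPJ and IPC Notch, and not in RGC RBPJ. Each of the 3 list peaks covered the start site: the RGC Notch peak was 2283 bp wide, the IPC RBPJ peak 2461 bp and the IPC Notch peak 859 bp. They shared 774 bp with 1 TTCCCA word, which read TTCCCACA and lay 0.28 kb upstream of the start. Only 17 of all consensus peaks, or 0.0817%, had this set of lists, and 4 of these were in cluster 7. Peak 1 (chr6:55577920-55581517, cluster 7) lay 99.7 kb downstream and was called in both RBPJ lists. Peak 2 (chr6:55645218-55648625, cluster 4) was called in RGC RBPJ at 32.6 kb downstream, and peak 4 (chr6:55716880-55718145, cluster 3) in IPC RBPJ at 35.6 kb upstream. The last of these held no GATC site, the only sequence that Dam methylates.

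Neurod4 (ENSMUSG00000048015, chr10:130268152-130280240, minus strand), a further proneural factor of this family, had no peak in any list. No consensus peak lay within 100 kb of its start site, whichever gene was nearest. The sequence nearest to its start site spanned 54.2 kb, for which a count of 0 allowed up to 6.8 peaks per 100 kb, so a density like that of the other members could not be told from its absence.

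**Figure D1:**
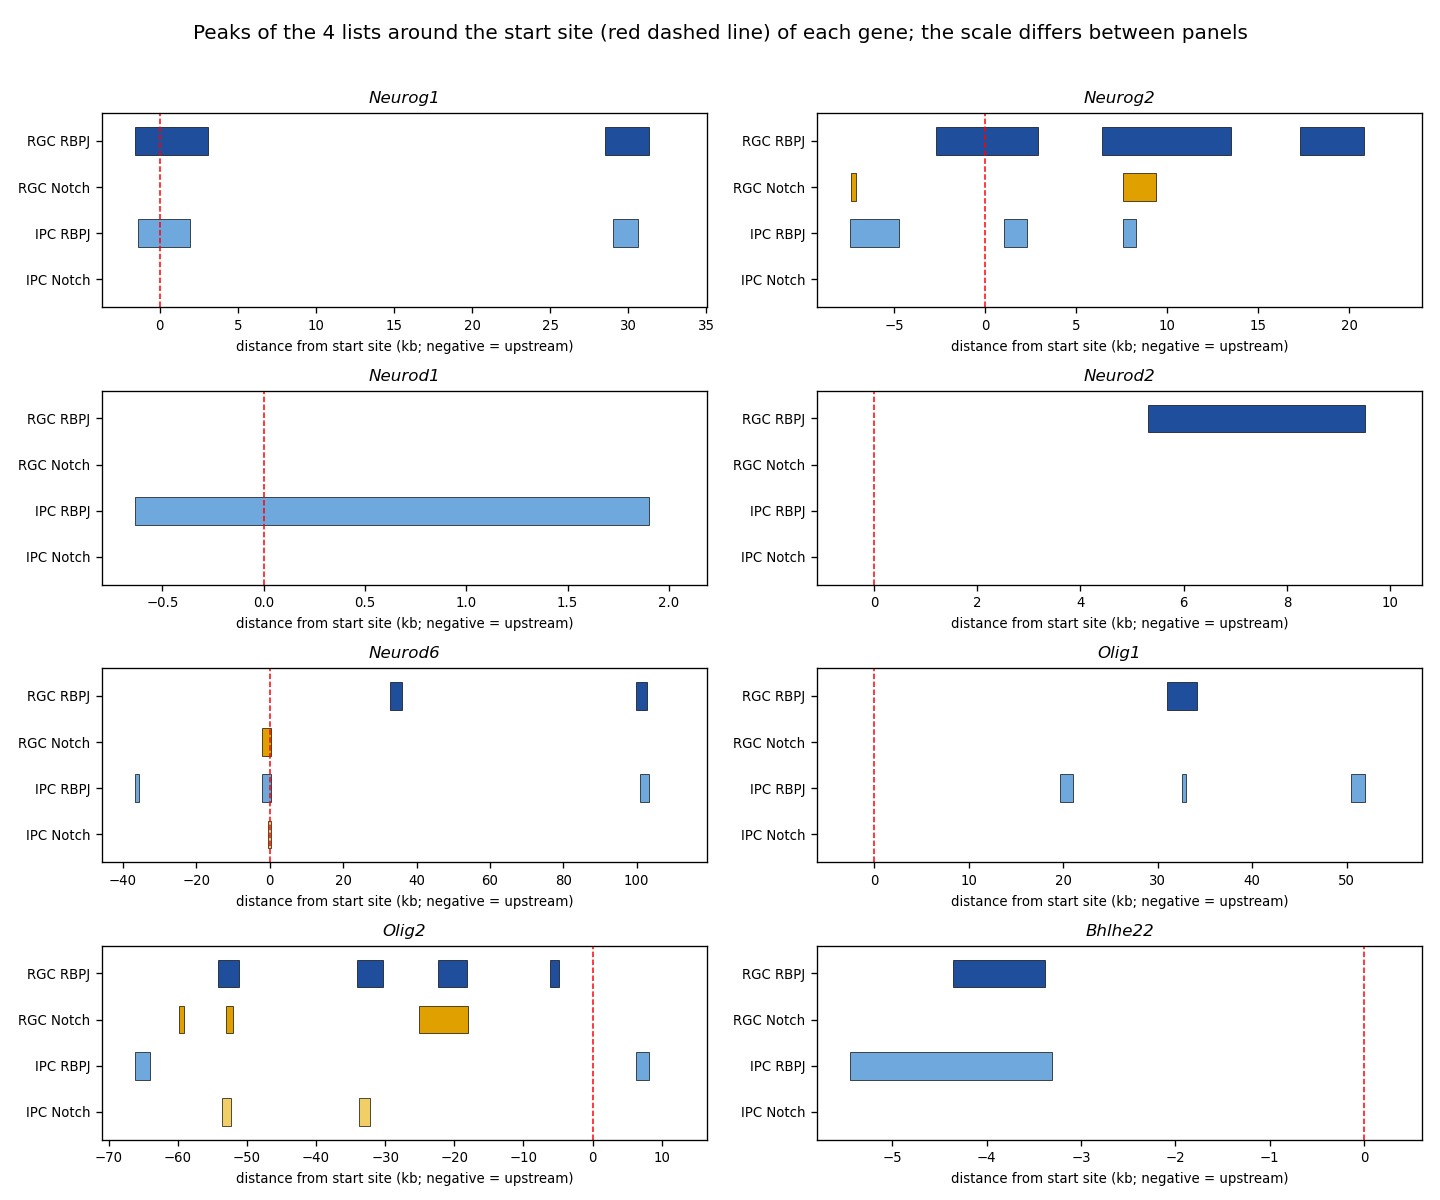
Peaks of the RGC RBPJ, RGC Notch, IPC RBPJ and IPC Notch lists around the start sites of the 8 genes with a peak, in kb along the gene's own strand with upstream negative. Start sites were covered at Neurog1 (both RBPJ lists), Neurog2 (RGC RBPJ), Neurod1 (IPC RBPJ) and Neurod6 (RGC Notch, IPC RBPJ and IPC Notch), and at no other gene.

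Olig2 (ENSMUSG00000039830, chr16:91225457-91228677, plus strand) and Olig1 (ENSMUSG00000046160, chr16:91269772-91271933, plus strand) are neighbours whose start sites lie 44.3 kb apart. Olig2 acts in ventral progenitors and, with Olig1, in cells of the oligodendrocyte lineage. Together they took 10 of the 23 consensus peaks, and none of these lay on either start site. Olig2 had 7 peaks, more than any other member, and 2.02% of all protein-coding genes had more. They were called 4 times in RGC RBPJ, 3 times in RGC Notch, and 2 times each in IPC RBPJ and IPC Notch.

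Notch was called in 4 of the 7 Olig2 peaks, all of them upstream of the gene. Peak 3 (chr16:91171275-91174306, cluster 2), 51.2 kb upstream, was called in RGC RBPJ, RGC Notch and IPC Notch, which shared 808 bp without a TTCCCA word. Peak 4 (chr16:91191452-91195070, cluster 6), 30.4 kb upstream, was called in RGC RBPJ and IPC Notch, which shared 1658 bp with 3 TTCCCA words. Peak 5 (chr16:91200315-91207488, cluster 1), 18 kb upstream, was the widest of the 23 at 7174 bp, and its RGC RBPJ peak of 4244 bp lay inside the RGC Notch peak. Peak 2 (chr16:91165661-91166288, cluster 4), 59.2 kb upstream, was the narrowest at 628 bp. It was called in RGC Notch alone and was the only 1 of the 23 without a TTCCCA word.

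RBPJ alone was called at the remaining Olig2 peaks. Peak 6 (chr16:91219295-91220659, cluster 7), 4.8 kb upstream, was called in RGC RBPJ and held 4 TTCCCA words in 1365 bp, or 2.93 per kb, the highest density among the members. Of these words, 3 continued as TTCCCAC. Peak 7 (chr16:91231765-91233605), 6.31 kb downstream, and peak 1 (chr16:91159193-91161499), 64 kb upstream, were called in IPC RBPJ, both in cluster 3. Farther out, 81.6 kb upstream of Olig2, a consensus peak called in all 4 lists (chr16:91136789-91143858, cluster 4) lay nearest to the start site of 4932438H23Rik and was therefore not counted for Olig2.

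Olig1 had 3 peaks, at 19.7, 31 and 50.5 kb downstream, with their midpoints in introns of the lincRNA gene Gm15966. IPC RBPJ was called in all 3 and RGC RBPJ in peak 2 (chr16:91300802-91303986, cluster 7), where the IPC RBPJ peak covered 483 bp of 3185 bp. Peak 1 (chr16:91289453-91290838, cluster 3) held no GATC site. Peak 3 (chr16:91320223-91321714, cluster 7) held 4 TTCCCA words, or 2.68 per kb. Neither Notch list had a peak nearest to Olig1.

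Bhlhe22 (ENSMUSG00000025128, chr3:18054174-18057517, plus strand), a bHLH repressor of cortical projection neurons, had 1 peak (chr3:18048719-18050862, cluster 7), 3.31 kb upstream of the start site. Both RBPJ lists called it, with an RGC RBPJ peak of 982 bp inside the IPC RBPJ peak of 2144 bp. The 982 bp held 2 TTCCCA words.

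Read together by gene, 8 of 9 members (88.9%) had a consensus peak, where 39.7% of 21938 protein-coding genes had one. RGC RBPJ had a peak nearest to 7 members (77.8%) against 31.7% of genes, and IPC RBPJ to 7 members (77.8%) against 16.4%. RGC Notch had one at 3 members (Neurog2, Neurod6 and Olig2; 33.3%) against 11.7%, and IPC Notch at 2 (Neurod6 and Olig2; 22.2%) against 6.97%. A gene far from its neighbours has more sequence in which to collect peaks. The sequence nearest to the members was 712.1 kb with 23 peaks, or 3.23 per 100 kb (interval 2.05 to 4.85), against 0.763 over all nuclear sequence. That second density counts whole chromosomes, with gene-poor sequence and unsequenced gaps, and was not matched to sequence like that of the members. By gene the density ranged from 0 at Neurod4 and 0.678 at Bhlhe22 to 8.02 at Olig2 and 8.69 at Neurog2, with wide intervals for single genes. The interval began at 2.37 for Neurog2, 3.22 for Olig2 and 0.84 for Olig1, in each case above the density of all sequence. The intervals of the other 6 genes included it.

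**Figure D2:**
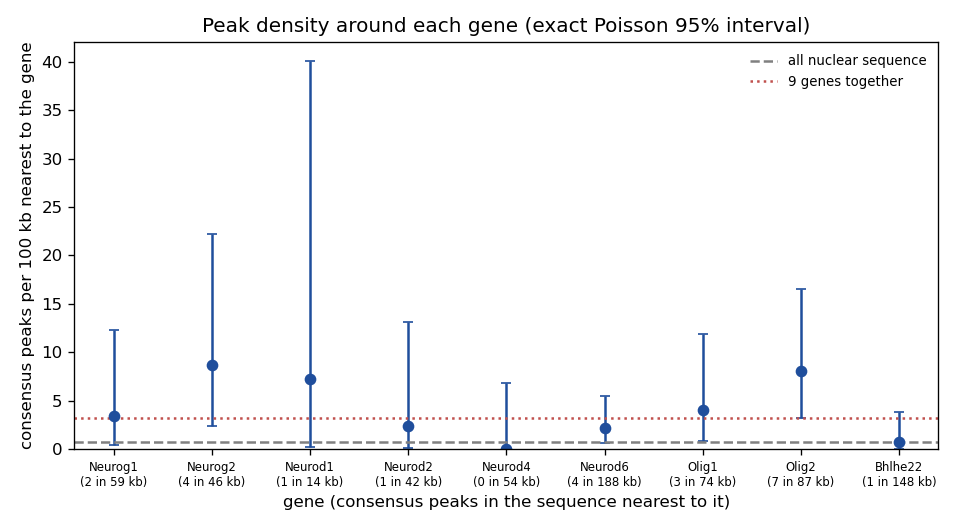
Consensus peaks per 100 kb of sequence nearest to the start site of each gene (points) with exact Poisson 95% intervals (bars), and the density over all nuclear sequence (gray dashed line, 0.763) and over the 9 genes (red dotted line, 3.23). Neurog2 and Olig2 had the highest densities, and Neurod4 had none.

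Among the 23 consensus peaks, IPC RBPJ was called in 15 (65.2%, interval 44.9 to 81.2), where 26.2% of all consensus peaks were. RGC RBPJ was called in 14 (60.9%, 40.8 to 77.8), close to the 67.6% of all peaks. RGC Notch was called in 6 (26.1%, 12.5 to 46.5) against 17.7%, and IPC Notch in 3 (13.0%, 4.54 to 32.1) against 10.1%. A Notch list called 7 (30.4%) against 25.4% of all peaks. The interval lay above the share of all peaks for IPC RBPJ alone and included it for the other lists. These intervals treat the 23 peaks as independent, although 10 of them lie at the Olig genes, and are therefore too narrow. When the start sites of all annotated genes were used, 12 peaks stayed with the members, and IPC RBPJ was called in 9 of them (75.0%). Without the 2 Olig genes, 13 peaks were left, with IPC RBPJ in 10 (76.9%), RGC Notch in 3 and IPC Notch in 1. When a list peak had to cover at least 50% of the consensus peak, IPC RBPJ was called in 12 (52.2%) against 22.2% of all, RGC Notch in 3 and IPC Notch in 0.

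Sites called for RBPJ in both cell types were frequent among the members, but their share is not separate from the high IPC RBPJ share. Both RBPJ lists called 7 of the 23 peaks (30.4%, 15.6 to 50.9), where 6.85% of all consensus peaks were in both. These 7 belonged to Neurog1 (2), Neurog2 (2), Neurod6, Olig1 and Bhlhe22. The calls rested on any overlap, and in some of them 1 of the lists covered little of the consensus peak: 22.8% and 10.3% at Neurog2 peaks 2 and 3, 15.2% at Olig1 peak 2 and 45.8% at Bhlhe22. When both lists had to cover at least 50%, 3 of the 23 were left (13.0%, 4.54 to 32.1), both Neurog1 peaks and Neurod6 peak 1, against 2.91% of all. Of the members' RGC RBPJ peaks, 7 of 14 (interval 26.8% to 73.2%) were also called in IPC RBPJ, against 10.1% of all. Of their IPC RBPJ peaks, 7 of 15 (46.7%, 24.8 to 69.9) were also called in RGC RBPJ, against 26.1%, which lay inside that interval. Among all 23 peaks of the members, IPC RBPJ was called in 65.2%. The 7 of 14 among those with RGC RBPJ was not higher, and its interval included 65.2%. A consensus peak exists only where some list called it, which lowers the IPC RBPJ share among peaks with RGC RBPJ. Over all consensus peaks it was 10.1%, against 26.2% of all peaks. The comparison therefore cannot show whether shared calls exceeded the shares of the single lists, and this was not tested. In all, 12 peaks (52.2%, 33 to 70.8) were called in 2 or more lists against 17.1%. This count includes pairs of lists of the same cell type, which may share Dam-only samples. With a cover of at least 50% for each list, 5 were left (21.7%, 9.66 to 41.9) against 11.0%, which lay inside that interval. None of the 23 was called in all 4 lists, which 0.678% of all peaks were.

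IPC RBPJ was called in all 4 peaks on a start site (100%, 51 to 100) against 26.4% of all start-site peaks, although at Neurog2 the IPC peak itself stopped short of the site. Away from start sites it was called in 11 of 19 (57.9%, 36.3 to 76.9) against 26.2%. Wide peaks have more room to overlap, and the members' peaks were wider than others, with a median of 2838 bp (628 to 7174) against 1890 bp. Within the middle range of the members' widths, 1841 to 3619 bp, IPC RBPJ was called in 9 of 13 (69.2%, 42.4 to 87.3) against 21.8% of 7679 peaks of those widths, and both RBPJ lists in 4 of 13 (30.8%, 12.7 to 57.6) against 8.09%. A peak without a GATC site cannot be methylated within its own bounds. No GATC site was found in 2 of the 23 (8.70%) against 9.76% of all, and IPC RBPJ was called in both (100%) and in 87.7% of all such peaks. Among the peaks with a GATC site it was called in 13 of 21 (61.9%, 40.9 to 79.2) against 19.6%. Both shares come from subsets of the same 23 peaks, and a part of width or GATC content in the IPC RBPJ share was not tested.

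**Figure D3:**
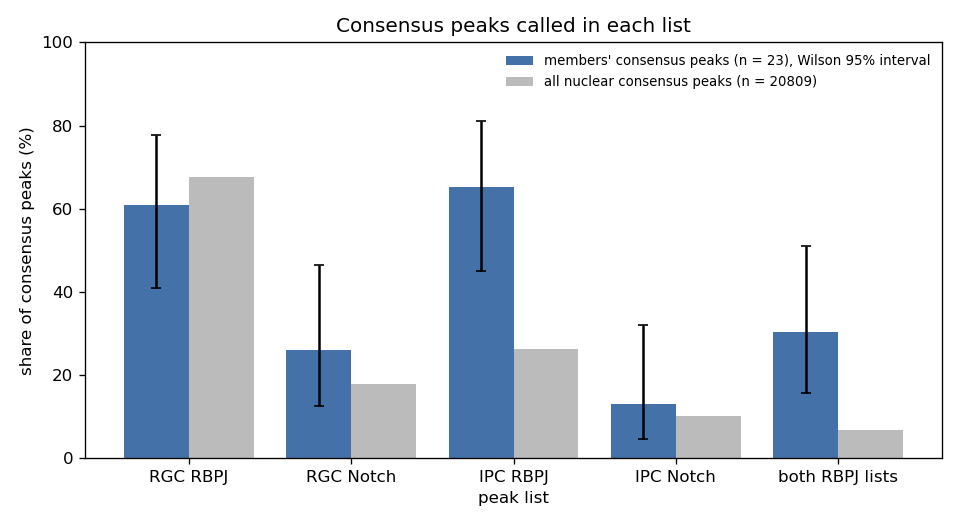
Share of consensus peaks called in each list and in both RBPJ lists, in percent, for the 23 peaks of the members (blue, with Wilson 95% intervals) and for all 20809 nuclear consensus peaks (gray). The blue bars stand at 65.2% for IPC RBPJ and 30.4% for both RBPJ lists, with intervals above the gray bars.

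By cluster, 9 of the 23 peaks (39.1%, 22.2 to 59.2) were in cluster 7, against 11.0% of all consensus peaks. Over all its peaks, cluster 7 was called in RGC RBPJ in 73.7% and in IPC RBPJ in 52.9%. Each Notch list was called in a smaller share of these peaks than either RBPJ list. The clusters rest on binding intensities, not calls. From these, the paper describes clusters 2, 6 and 7 as sites where NOTCH and RBPJ were both bound, in RGCs as well as IPCs. The 9 came from 6 genes (Neurog1, Neurog2, Neurod6, Olig1, Olig2 and Bhlhe22), and 6 of them were called in both RBPJ lists. Cluster 3, the cluster of IPC RBPJ, held 6 peaks (26.1%, 12.5 to 46.5) against 16.3%, at Neurod1, Neurod2, Neurod6, Olig1 and Olig2. The clusters in which RGC RBPJ was called in nearly every peak were sparse at the members: cluster 5 held 1 (4.35%, 0.772 to 21) against 22.5%, and cluster 8 held none (0.00%, upper limit 14.3) against 14.4%. Both intervals ended just below the share of all peaks. Cluster 1, the cluster of RGC Notch, held 1 (4.35%) against 10.5%, and cluster 6 also 1 (4.35%) against 10.8%. Cluster 2 held 2 (8.70%) against 4.76%, and cluster 4 held 3 (13.0%) against 9.79%.

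**Figure D4:**
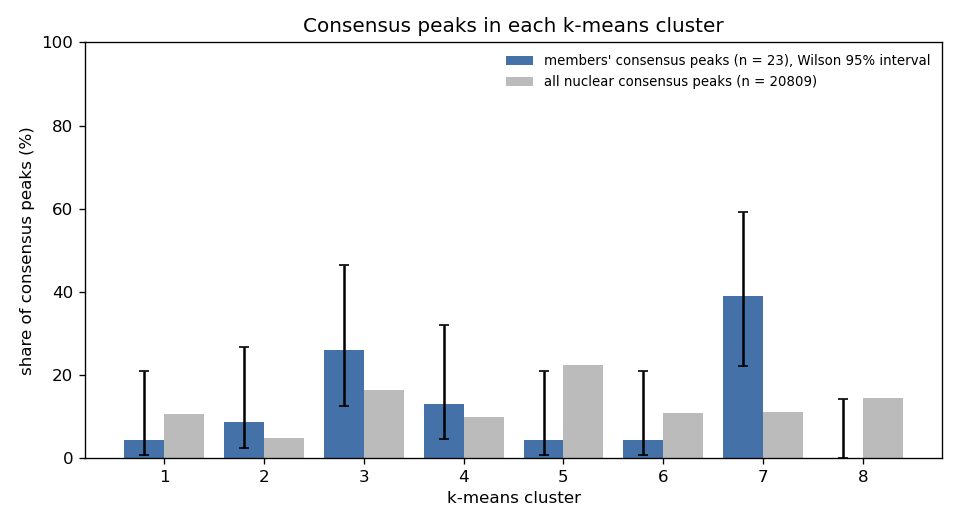
Share of consensus peaks in each of the authors' 8 k-means clusters, in percent, for the 23 peaks of the members (blue, with Wilson 95% intervals) and for all 20809 nuclear consensus peaks (gray). Cluster 7 stands at 39.1% against 11.0%, and cluster 8 holds no peak of the members.

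In counts of position and sequence words, no difference of the members' peaks from the rest beyond counting error was seen, though the intervals of the shares were wide. On a start site lay 4 (17.4%, 6.98 to 37.1) against 16.6%, and over 10 kb from the nearest start site 13 (56.5%, 36.8 to 74.4) against 61.2%. GC content had a median of 47.4% against 45.3%, for which no interval was computed. TTCCCA occurred 74 times in 72.1 kb, or 1.03 per kb (0.806 to 1.29), against 1.17 in all peaks. It was present in 22 of the 23 (95.7%, 79 to 99.2) and in 82.9% of all peaks. The E-box words CAGATG and CATATG occurred at 1.17 per kb (0.929 to 1.44) against 1.07. In the central 300 bp, TTCCCA was found in 5 peaks (21.7%, 9.66 to 41.9) against 29.9%, and an E-box word in 8 (34.8%, 18.8 to 55.1) against 26.5%. Each of these intervals included the value of all peaks. Pairs of TTCCCA words facing each other with 15 to 17 bases between them, the arrangement at which RBPJ complexes can pair, were found in none of the 23 (0.00%) and in 0.231% of all peaks. Peaks of the members in a Notch list held 0.824 TTCCCA per kb (0.516 to 1.25) and those in RBPJ lists alone 1.15 (0.856 to 1.5), and these intervals overlapped.

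Around the members lay further peaks that the rule gave to neighbours. Within 100 kb of a member's start site there were 45 consensus peaks in all. Neurod2 had 8, of which 7 were nearest to other genes, and Neurog2 had 11, of which 7 were. Neurod1 had 6, of which 5 were nearest to other start sites. Bhlhe22 had only its own.

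Other genes of the proneural pathway were counted in the same way, with no test between the groups. A peak called in both RBPJ lists was found at 5 of the 9 members (55.6%, 26.7 to 81.1) and at 5.22% of all protein-coding genes. Among 12 other neural bHLH genes, 7 had a peak, 3 in RGC RBPJ, 1 in RGC Notch, 6 in IPC RBPJ and 2 in IPC Notch, and 1 of the 12 had a peak called in both RBPJ lists. The shares of all genes for these lists are those given above for the members. Among them, Olig3 had 5 peaks. Of 8 inhibitors (Hes, Hey1 and Id genes), 7 had a peak, 7 in RGC RBPJ, 6 in RGC Notch, 6 in IPC RBPJ and 5 in IPC Notch, and 5 had a peak called in both RBPJ lists. The counts were largest at Id4 with 22 peaks and Hes1 with 12. Hes5 had 3 peaks, with RGC RBPJ called in 2 and RGC Notch in 2. The RGC plasmids carried a fragment of the Hes5 promoter, and a part of plasmid DNA in the RGC calls at Hes5 was not tested. Of 10 genes known as targets of proneural factors, 9 had a peak, 7 in RGC RBPJ, 5 in RGC Notch, 6 in IPC RBPJ and 3 in IPC Notch, and none had a peak called in both RBPJ lists. Eomes, the marker gene of IPCs, had 6 peaks, with RGC RBPJ called in 3 and IPC RBPJ in 3. Of the 3 E proteins, Tcf4 had 18 peaks, Tcf12 had 3 and Tcf3 had none.

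Over counts in the 4 lists and 8 clusters, the genes most like Olig2 were Ccdc182 and Gm5089 (summed absolute difference 5) and Arhgap25 (6, with 9 genes tied). Those most like Neurod6 were Pam, Rcn1 and Tbx18 (2, with 4 tied), and for Neurog2 they were Setd5 (3) and, among 10 tied at 4, 4930470P17Rik and A930004D18Rik. These counts come from 21929 genes.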

How the data were processed

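RBPJ and Notch binding was mapped in 14 fusion samples, with 5 RGC and 4 IPC Dam-only samples; 16 of the 39 samples (full-length Notch, neuronal and ubiquitous Dam-only) were not analysed here. The authors aligned the reads to mm10 and used MACS2 in broad mode on each pair of fusion and Dam-only samples. They kept peaks passing an FDR threshold in all pairs and merged overlapping peaks of the lists into consensus peaks. These were clustered by k-means on averaged binding intensities, corrected for length and turned into z-scores. The deposited files hold positions in bp, list names, cluster numbers and a score column that is the same in every row, with 0 columns of single samples.

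Peaks were assigned to the nearest protein-coding start site of GENCODE M21, with ties counted for both genes and overlap counted from 1 bp. The list names in the cluster file equalled the overlaps at all 20811 peaks, of which 2 mitochondrial ones were left out. Words were counted on both strands of GRCm38.p6, with Python 3.11.15, numpy 2.4.6 and scipy 1.17.1. Assignment and word counts, tested on simulated data, matched in 500 of 500 and 200 of 200 runs. The members and lists were chosen with earlier results of these data known. The text names all members, neighbours beside their peaks, and the 3 genes most like each of the 3 members with most peaks. Genes of the 4 lists (other bHLH genes, E proteins, inhibitors, proneural targets) named with a value were picked after their values were seen. Alternatives were other assignment rules, width and overlap limits, words and windows. Leaving out tied peaks, the Olig genes or peaks without GATC, and the alternatives for the peaks in both RBPJ lists, were chosen after seeing the data.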

Additional observations from a re-analysis of the deposited data

How the results depend on the processing

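Among the recomputed values, 96 stayed within 1.5 times (counts) or within the counting interval (shares and rates) and 28 did not. None of the shares of IPC RBPJ among the members' peaks fell below 51.1% (all peaks within 100 kb of a member), against 26.2% of all peaks. These settings reuse many or all of the same 23 peaks and are not independent checks. With all annotated genes, 12 consensus peaks were left (7 called in RGC RBPJ, 3 in RGC Notch, 9 in IPC RBPJ and 1 in IPC Notch, with the same numbers for the single lists, and 4 in both RBPJ lists), clusters 1 and 6 held 0, cluster 2 held 1 and cluster 7 held 4. Counting each peak within 100 kb of a member, whichever gene was nearest, gave 45. With 1 start site per gene, 33 consensus peaks were assigned to the members, and clusters 5 and 6 held 3 each (9.09%). With a cover of at least 50%, RGC Notch was called in 3 and IPC Notch in 0, and 3 were in both RBPJ lists. The share in 2 or more lists was then 21.7%, against 11.0% of all peaks. Without the Olig genes, RGC RBPJ was called in 9, RGC Notch in 3 and IPC Notch in 1. The RBPJ word occurred at 0.696 per kb in the central 500 bp (1.18 in all peaks) and, as TTCCCAC, at 0.264 per kb (0.27), and TTCCCAC was in the central 300 bp of 4.35% (8.05%). Any E-box, CANNTG, occurred at 5.31 per kb (5.5). Raising the threshold on peaks was not possible with lists whose score is constant. No paired analysis was possible because each list is pooled and the columns carry no replicate, and for the same reason no replicate could be left out. With 23 peaks, counting error limits every share given here.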
